A study of Homo sapiens with 25 samples.

Results

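RNA libraries of A549, an established human lung carcinoma line, carry the numbers 1, 2 and 3 in their titles, and the 4 libraries numbered 3 are described here against the 8 numbered 1 or 2. Of the 25 samples of the series, 12 are RNA libraries and 13 are CUT&RUN chromatin samples, which are not analysed here. The libraries were chosen by the number alone, with no measured value, although this set was singled out with results of these data known. The labels do not say what the number stands for, so the libraries of 1 number are called a set. The line carries a mAID degron tag on TRRAP, a scaffold of histone acetyltransferase complexes, according to the growth protocol and the design text, whereas the genotype entry reads WT and the design text spells the line A459 in places. Whether the tagged line is a single clone is not stated. All cells were grown in RPMI with 10% FCS, held with 2 mM thymidine over 20 h, and the release from this block lasted 4 h. The DMSO group had no further agent. The prexasertib group received this inhibitor of the kinase CHK1 for 3 h. The 5-Ph-IAA group received this auxin analog, which triggers degradation of mAID-tagged proteins, at 1 µM for 6 h, and the last group received both drugs. The chromatin and RNA labels give different dose units for prexasertib, so its dose is not used. Each of the 4 treatments had 1 library of each number, so treatment and set were balanced. Set 3 is a single set, and the p-values measure the spread among these 12 libraries, because nothing in the labels says that the numbers stand for separate cultures.

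A549 cells descend from a lung carcinoma with features of alveolar epithelium, and in culture they express few of the surfactant genes of that cell type. They are known for a deletion of CDKN2A and carry a defective KEAP1, so that the NRF2 antioxidant program is active. They also express transcription factors of endoderm such as HNF4A, together with plasma proteins that hepatocytes secrete. Epithelial cells attach to their neighbours through cadherins, claudins and desmosomes, and to the matrix through integrins that bind laminin, collagen and fibronectin. Sterol synthesis is switched on by SREBP2 when membrane sterol is low, and its enzymes then tend to move together.

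Total counts per library ran from 10830048 to 17789482, and between 17135 and 18912 genes had at least 1 count. In each treatment the library of set 3 had the fewest detected genes of the 3 (17312, 17135, 17890 and 17967). The keratin genes KRT7, KRT8 and KRT18 and the NRF2 targets NQO1 and AKR1C1 were measured in every library, and the lowest of these levels was 223 CPM (the usual count unit scaled to sequencing depth, on library sizes adjusted by the TMM method) for AKR1C1. Of 3 genes listed for the CDKN2A region, CDKN2A and CDKN2B had 0 counts in all 12 libraries, and MTAP lay at 5.13 to 8.22 CPM in sets 1 and 2 and 7.58 to 10.6 CPM in set 3. Of the 7 genes listed as markers of the line, KRT19 and EPCAM were far less abundant. KRT19, whose levels are given below with the keratins, had the lowest log2 difference of set 3 among the 7 (-1.79). The epithelial adhesion gene EPCAM lay at only 0.452 to 1.34 CPM in sets 1 and 2 and 0.623 to 1.06 CPM in set 3. Markers of other cell types are given as sums of CPM on library sizes without TMM factors. Those of endothelium summed to 0.173 to 1.03 CPM in sets 1 and 2 and 0.169 to 1.21 CPM in set 3. Those of blood summed to 3.30 to 8.51 and 2.79 to 4.55 CPM, and those of fibroblasts to 30.2 to 39.9 and 26.4 to 35.7 CPM, with DCN at 0. Neuronal markers (SNAP25, SYT1, RBFOX3 and TUBB3) summed to 298 to 401 and 302 to 390 CPM. The neuronal sum is not split by gene here and does not show that neurons were present. In bulk RNA, fewer cells of a type and less RNA per cell cannot be told apart.

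Differences of set 3 from the other sets were spread over many programs, and most were small. Among 14658 genes tested, 3311 were higher in set 3 (22.6%) and 3135 were lower (21.4%) at an edgeR adjusted p under 0.05, which is 44.0% of the genes. The median size of these changes was 0.30 on the log2 scale, and 5072 of the 6446 were under 1.5-fold. Counts in the gene lists below are to be read against the shares of 22.6% higher and 21.4% lower. Changes of at least 2-fold were mostly losses: 78 genes (0.532%) were higher and 519 (3.54%) were lower. The same contrast between sets 2 and 1 gave 15 genes of 14730 (0.102%), with 878 (5.96%) at an unadjusted p under 0.05. Against set 1 alone the libraries of set 3 gave 2608 higher and 2543 lower genes, and against set 2 alone 2757 and 2597. With library size as the only scaling 2442 genes were higher and 3833 lower, so that 38.9% of the calls were higher, against 51.4% with TMM factors.

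The difference recurred in each treatment. The median size of the log2 CPM difference between libraries of the same treatment was 0.206 to 0.225 for set 3 against set 1 and 0.205 to 0.231 for set 3 against set 2, compared with 0.0991 to 0.139 for set 2 against set 1. For scale, the median size of the 5-Ph-IAA difference within a set was 0.260 to 0.267, and that of prexasertib was 0.185 to 0.192. After the treatment means were removed, the first principal component held 51.8% of the variance and placed the 4 libraries of set 3 at 30.1 to 35.1, and the other 8 between -21.3 and -13.8. In 2690 genes (18.4%) the library of set 3 was above both others in all 4 treatments, and in 2414 genes (16.5%) it was below both. All 4 libraries of set 3 lay above all 8 others in 809 genes (5.52%) and below them in 727 (4.96%).

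**Figure D1:**
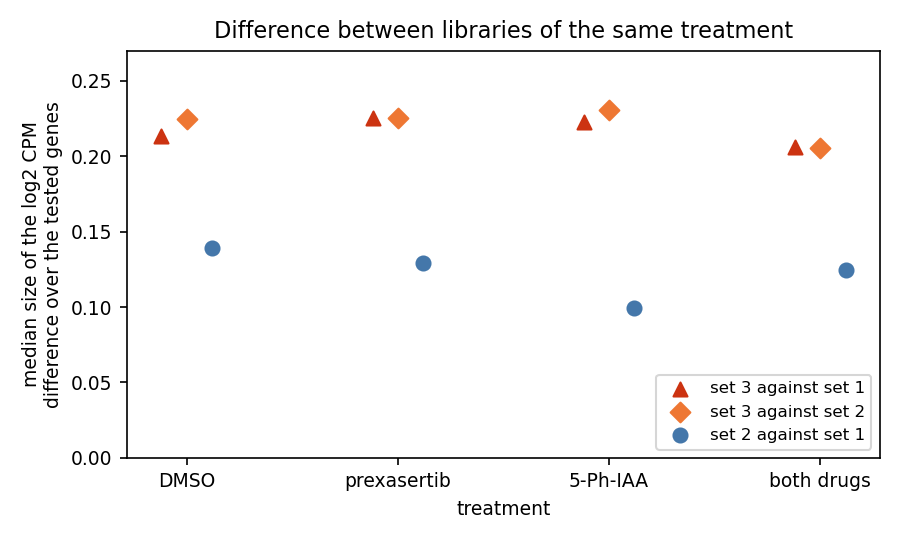
Median size of the log2 CPM difference over the tested genes (vertical axis) between pairs of libraries of the same treatment (horizontal axis), 1 point per pair. The 8 comparisons with set 3 sit between 0.205 and 0.231, above the 4 comparisons of set 2 with set 1, which sit between 0.0991 and 0.139.

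Gene size and abundance moved with the comparison. Across 14587 genes with a known span (start to end of the gene, introns included), split into 5 equal bins, the bin with the shortest spans had a median log2 difference of 0.09, with 31.5% of genes higher and 16.5% lower. The bin with the longest had a median of -0.06, with 13.9% higher and 26.5% lower. Spearman's rho of the difference with span was -0.139, and with mean log2 CPM over 14658 genes it was 0.231; these are correlations across genes, which share the same 12 libraries. NEAT1 and MALAT1, long noncoding RNAs that stay in the nucleus, were both lower in set 3. NEAT1 had 103, 352, 54.9 and 111 CPM in the libraries of set 3 (here and below in the order DMSO, prexasertib, 5-Ph-IAA, both drugs), against 299 to 806 CPM (median 424) in the other 8. The prexasertib library of set 3 overlapped the others, and the remaining 3 lay well below them. The log2 difference of NEAT1, given here and below with its standard error and the edgeR adjusted p, was -1.86 ± 0.27 (adjusted p = 0.00091), and that of MALAT1 was -1.30 ± 0.21 (adjusted p = 0.0017). Restricted to the 6 libraries without 5-Ph-IAA, neither call held (adjusted p = 0.11 for NEAT1 and 0.13 for MALAT1). A list of nuclear and intron-detained transcripts drawn up after these values were seen had 18 of 20 tested members lower and 1, RBM5, higher, with a median of -0.61. Its lowest value, -1.86, is that of NEAT1 itself, so the count is not separate from the values above. The part of gene span, abundance and these transcripts in the results below was not tested.

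The genes with the greatest losses, among those at a log2 CPM averaging 1 or more and with the set 3 library lowest in every treatment, included surface, secreted and vesicle proteins of glandular epithelia. CEACAM6, a membrane-anchored adhesion glycoprotein of the CEA family (NCBI Gene 4680, GRCh38.p14 chromosome 19, 41755530 to 41772211), had 2.96, 1.56, 3.64 and 3.34 CPM in set 3 and 25 to 33.3 CPM (median 29) in the others. The ranges were far apart, with a difference of -3.32 ± 0.12 (adjusted p = 8.8e-26). CDH17, a cadherin of intestinal epithelium, had 1.09, 0.916, 0.910 and 0.965 CPM in set 3, against 3.75 to 8.94 CPM (median 6.76) in sets 1 and 2. All 4 libraries of set 3 were at the bottom, and CDH17 differed by -2.78 ± 0.21 (adjusted p = 5.5e-15). CST1, a secreted cystatin that inhibits cysteine proteases, had 1.09, 0.0916, 0.910 and 1.11 CPM against 3.51 to 6.94 CPM (median 5.18), and its difference was -2.70 ± 0.24 (adjusted p = 4.3e-12). CEACAM6 has close paralogs, and how reads shared with them were counted is not given in the sources used here.

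The remaining genes among the 15 greatest losses had log2 differences between -2.01 and -2.94, with adjusted p of at most 1.6e-07. They were the synaptotagmins SYT8 and SYT13, which act in membrane trafficking, the cilia-associated gene CFAP74, the guanine deaminase GDA, the actin regulator EPS8L3, the rhomboid protease RHBDL1, the coagulation factor F5 and SAP25, a partner of the SIN3 corepressor. SEC31B of the COPII coat, the basement membrane collagen COL4A3, the C2-domain gene TC2N and the scaffold PDZK1 of apical transporters completed them. For F5 the libraries of set 3 had 1.71, 1.56, 0.910 and 1.19 CPM against 4.55 to 8.99 CPM (median 5.47). SAP25 was the only gene of the 15 whose ranges overlapped, with its prexasertib library at 2.38 CPM above the lowest of the others (1.96 CPM).

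The 15 genes with the greatest gains, by the same rule in the other direction, were of mixed function. EFEMP1, which encodes the matrix glycoprotein fibulin-3 (NCBI Gene 2202, GRCh38.p14 chromosome 2, 55865967 to 55923782), had 58.5, 70.7, 68 and 72 CPM in set 3, against 19.6 to 25.7 CPM (median 22.8) in sets 1 and 2. Every library of set 3 was at more than 58 CPM and no other library passed 26 CPM, and the difference was 1.57 ± 0.069 (adjusted p = 4.3e-21). ATOH8, a basic helix-loop-helix factor (NCBI Gene 84913, GRCh38.p14 chromosome 2, 85753991 to 85791383), had 48.8, 46.7, 34.4 and 30.1 CPM against 8.58 to 13.4 CPM (median 9.73). Its difference was 1.96 ± 0.079 (adjusted p = 6.1e-24), and within set 3 the 2 libraries without 5-Ph-IAA were higher than the 2 with it. ITGB3, the integrin beta chain that pairs with alpha-V to bind vitronectin (NCBI Gene 3690, GRCh38.p14 chromosome 17, 47253827 to 47313743), had 24.1, 21.1, 20.9 and 22.7 CPM against 4.72 to 7.95 CPM (median 7.05), with a difference of 1.76 ± 0.11 (adjusted p = 1.8e-16). ADAMTS9, a secreted metalloprotease that cleaves proteoglycans, had 13.6, 11.6, 11.4 and 12.5 CPM against 1.36 to 3.34 CPM (median 2.18) and rose most of the 15, by 2.46 ± 0.15.

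The other 11 genes with the greatest gains had log2 differences between 1.28 and 2.03, with adjusted p of at most 0.0058. Among them the proteoglycan SPOCK1 had 35.3, 38.5, 39.7 and 37.8 CPM against 10.6 to 14.9 CPM (median 12.3). The list also holds the atypical cadherin FAT4 (1.52) and DPYSL3 (1.51), a cytoskeletal phosphoprotein of migrating cells. RUNX2, a transcription factor of bone and of invasive carcinoma cells, had 9.42, 7.14, 9.86 and 6.68 CPM against 1.73 to 4.83 CPM (median 2.92) and differed by 1.39 ± 0.15 (adjusted p = 1.6e-10). DIO2, the deiodinase that activates thyroid hormone, had 27.5, 24.5, 49.4 and 45.6 CPM against 9.45 to 19.3 CPM (median 12.7) and differed by 1.37 ± 0.076 (adjusted p = 3.5e-19). The surface protein LY6K, the GTPase regulator ARHGAP31, the tetraspan protein LHFPL6, the cannabinoid receptor partner CNRIP1, the muscle gene IGFN1 and the exchange factor RASGRF2 made up the rest. Ranges overlapped for CNRIP1, IGFN1 and RASGRF2.

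**Figure D2:**
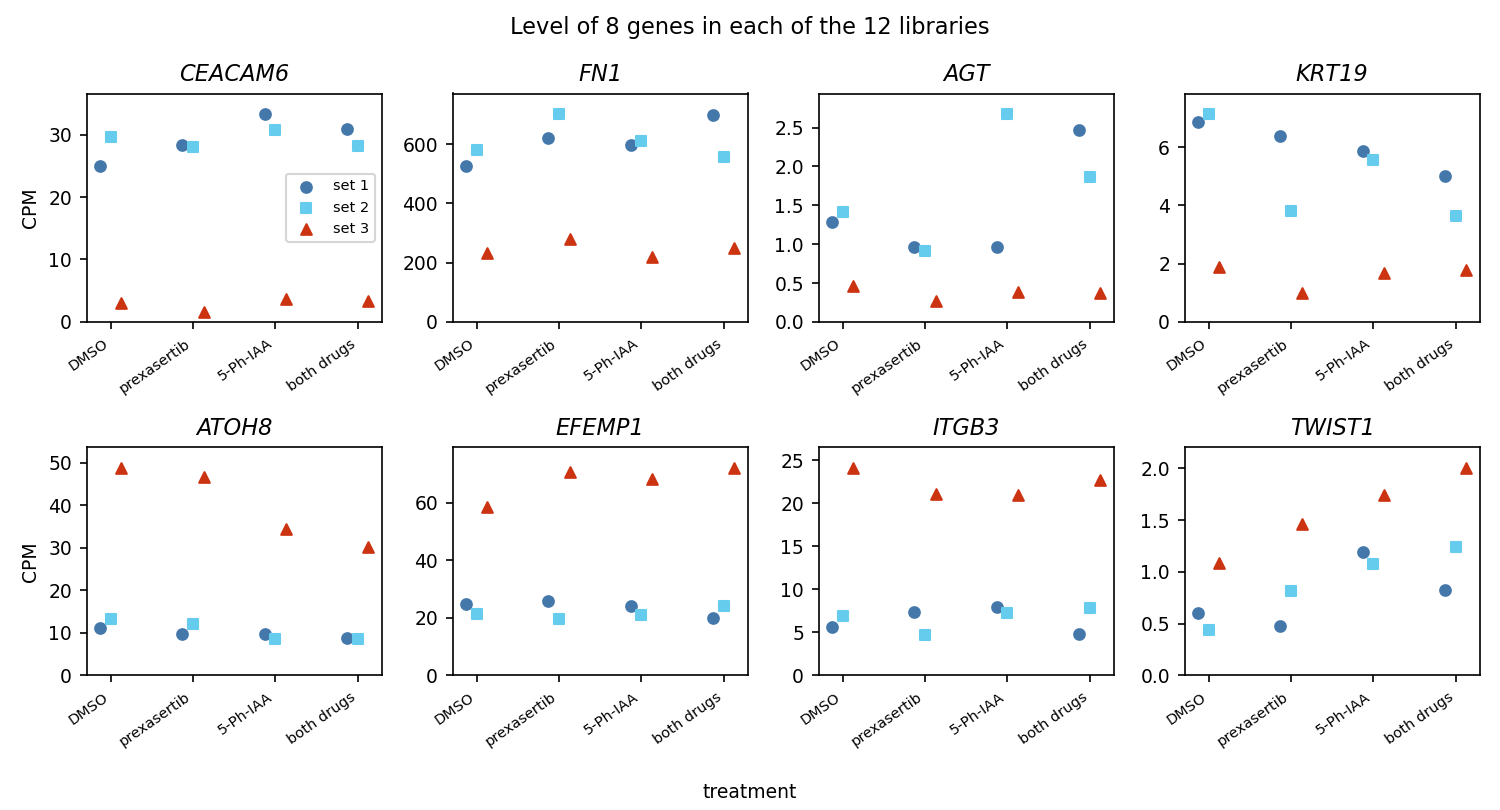
CPM (vertical axis, linear, from 0) of 8 genes in each of the 12 libraries by treatment (horizontal axis), with symbols for the 3 sets. CEACAM6, FN1, AGT and KRT19 are lowest in the set 3 library of every treatment, and ATOH8, EFEMP1, ITGB3 and TWIST1 are highest in it. AGT, a low-level member of the plasma protein list, and TWIST1, from the mesenchymal list that had no common direction, were shown outside the rule for named genes.

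Genes known from hepatocytes, most of them for plasma proteins, were lower in set 3. Of the 24 genes of this list 15 were tested, and 14 of them were lower and 1 higher, with a median log2 difference of -1.24, against 0.0030 over all genes tested. The 9 that were not tested, which include ALB, APOA1 and TTR, were too low to pass the filter on counts, and a filter at a mean log2 CPM of 1 left 9 lower members. FGB, the beta chain of fibrinogen, had 1.09, 0.916, 2.35 and 1.85 CPM in set 3 and 2.27 to 8.63 CPM (median 5.45) in the others, with a difference of -1.85 ± 0.19 (adjusted p = 1.1e-10). Only its 5-Ph-IAA library reached the range of the other sets. SERPINA1, the inhibitor of neutrophil elastase, had 0.778, 0.183, 0.758 and 0.816 CPM against 1.13 to 2.53 CPM (median 1.68) and differed by -1.43 ± 0.31 (adjusted p = 0.00024). APOH, a phospholipid-binding apolipoprotein, had 9.57, 7.88, 8.80 and 7.94 CPM against 17.4 to 25.6 CPM (median 19.9), so that every library of set 3 was at under 10 CPM and every other at over 17 CPM. APOH differed by -1.26 ± 0.10 (adjusted p = 4.5e-14), the complement component C5 by -0.65 ± 0.051 (adjusted p = 4e-14) and CPS1, the first enzyme of the urea cycle, by -0.77 ± 0.048 (adjusted p = 2.8e-13). Complement C3 was the member that was higher: it had 297, 332, 266 and 278 CPM against 233 to 273 CPM (median 254), with overlapping ranges and a difference of 0.20 ± 0.042 (adjusted p = 0.00013). 

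Transcription factors of epithelial identity were among the lower genes. HNF4A, a nuclear receptor that activates many plasma protein genes in liver, had 13.9, 15.9, 18.7 and 13.3 CPM in set 3, against 27.1 to 31.7 CPM (median 28.3) in the others. The ranges were separate, and the difference was -0.90 ± 0.082 (adjusted p = 2.5e-12). SOX9, a factor of progenitor epithelia, had 10.9, 8.33, 13.4 and 9.50 CPM against 13.5 to 22.1 CPM (median 16.8) and differed by -0.69 ± 0.10 (adjusted p = 3.3e-07). Both belong to a list of 30 lung identity genes, of which 16 were tested, 9 were lower and 0 were higher, with a median of -0.37. At an unadjusted p under 0.05 there was 1 higher member, limma-voom called 1 and DESeq2 0, and without the both-drugs library of set 3 there were 2. The 6 libraries without 5-Ph-IAA alone gave 5 lower members. NKX2-1 and the surfactant genes SFTPB and SFTPC, which define alveolar type II cells, did not pass the filter in these libraries. ABCA3, a lipid transporter of lamellar bodies, differed by -0.20 ± 0.051 (adjusted p = 0.0013).

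Keratins and mucins fell in part. Of 16 tested members 9 were lower and 2 were higher, with a median of -0.38. MUC13, a transmembrane mucin of gut and gland epithelium, had 30.1, 39.2, 33.2 and 33.8 CPM against 78.3 to 113 CPM (median 98.6), and the difference was -1.50 ± 0.056 (adjusted p = 4.5e-25). KRT19, a keratin of simple ducts, had 1.87, 1.01, 1.67 and 1.78 CPM against 3.64 to 7.13 CPM (median 5.71). Both genes were separate from the other sets in all 4 libraries, and KRT19 differed by -1.79 ± 0.20 (adjusted p = 4.3e-10). The abundant simple-epithelium keratins moved less: KRT18 differed by -0.33 ± 0.034 (adjusted p = 1.3e-10) and KRT8 by -0.21 ± 0.034 (adjusted p = 1.8e-06), and KRT7 was not called (0.01 ± 0.035, adjusted p = 0.82). The value of KRT7 turned to -0.035 with library size as the only scaling. KRT81, a hair keratin that carcinoma lines can express, was higher, with 2056, 2048, 1862 and 1868 CPM against 1269 to 1725 CPM (median 1559) and a difference of 0.37 ± 0.036 (adjusted p = 2.2e-11).

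Genes of contacts between cells were lower in set 3. Among 34 tested members of this list 20 were lower and 1 was higher, and the median was -0.26. The 6 libraries without 5-Ph-IAA alone gave 13 lower members. CLDN2, a claudin that forms cation pores in tight junctions, had 246, 228, 266 and 228 CPM in set 3 and 462 to 558 CPM (median 497) in sets 1 and 2. The 2 ranges did not overlap, and the difference was -1.04 ± 0.043 (adjusted p = 1.7e-23). CEACAM1, a cell adhesion receptor, differed by -1.15 ± 0.081 (adjusted p = 1.1e-15). CDH1, the epithelial cadherin, had 90.9, 95.2, 83.1 and 74.5 CPM against 96.8 to 117 CPM (median 106), and CDH2, the neural cadherin, had 44.8, 56, 46.5 and 39.4 CPM against 54.8 to 70.5 CPM (median 60.8). Both cadherins were lower: CDH1 differed by -0.30 ± 0.046 and CDH2 by -0.40 ± 0.056. CLDN1 differed by -0.15 ± 0.051 (adjusted p = 0.015), a call that was lost without the prexasertib library of set 3 (adjusted p = 0.092). PKP3, a desmosomal plakophilin, was the member that was higher, with a difference of 0.38 ± 0.068 (adjusted p = 1.4e-05).

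Integrins and focal adhesion genes split. Of 29 tested members 13 were lower and 6 were higher, with a median of -0.07, and the 6 libraries without 5-Ph-IAA alone gave 8 lower members. The share of higher members, 20.7%, was near the 22.6% over all genes tested, and that of lower members was 44.8% against 21.4%. ITGB4, the partner of alpha-6 in the laminin receptor of hemidesmosomes, had 182, 265, 159 and 163 CPM against 249 to 400.3 CPM (median 304) and differed by -0.71 ± 0.042 (adjusted p = 2.5e-18). ITGA1, a collagen-binding chain, had 3.04, 2.11, 2.73 and 2.60 CPM against 4.82 to 8.24 CPM (median 7.54) and differed by -1.41 ± 0.16 (adjusted p = 1.2e-09). ITGAV, the chain that pairs with ITGB3, was lower (-0.29 ± 0.039), while ITGB3 was higher (1.76) and so was ITGB5, another of its partners (0.28), which was picked out after its values were seen. The widely expressed ITGB1 differed by -0.14 ± 0.035 (adjusted p = 0.00062), and the actin linker VCL by -0.16 ± 0.036 (adjusted p = 0.0005). ITGA5, which pairs with ITGB1 to bind fibronectin, differed by -0.14 ± 0.057 (adjusted p = 0.037), and leaving out any 1 of 7 libraries, among them the DMSO library of set 3 (adjusted p = 0.13), ended its call.

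Matrix genes were mostly lower, with exceptions of large size. Of 29 tested basement membrane and matrix genes 15 were lower and 3 higher, and the median was -0.18. The median span of these genes was 98.3 kb, within the longer spans described above. FN1, fibronectin (NCBI Gene 2335, GRCh38.p14 chromosome 2, 215360865 to 215436068), had 231, 279.8, 220.3 and 251 CPM against 526 to 701 CPM (median 605). The highest library of set 3 was below 290 CPM and the lowest of the others above 500 CPM, and the difference was -1.32 ± 0.058 (adjusted p = 5.5e-13). The collagen chain COL4A5 differed by -0.65 ± 0.057 (adjusted p = 7.9e-13), and COL7A1, the collagen of anchoring fibrils, by -1.75 ± 0.17 (adjusted p = 8.2e-05). The laminin chain LAMB3 was lower (-0.95 ± 0.088), whereas the chain LAMA3 had 89, 89.8, 71.5 and 70.6 CPM against 29 to 45.9 CPM (median 35.9) and was higher by 1.15 ± 0.058. COL7A1, LAMB3 and LAMA3 were picked out after their values were seen. COL4A1 differed by 0.13 ± 0.038 (adjusted p = 0.0039), and its call was lost without the prexasertib library of set 3 (adjusted p = 0.094).

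Proteases and their inhibitors were lower in 8 of 15 tested members and higher in 3, with a median of -0.32. SERPINE2, a serine protease inhibitor, differed by -0.47 ± 0.043 (adjusted p = 4.6e-12). MMP7, a matrix metalloprotease of glandular epithelium, differed by -1.08 ± 0.11 (adjusted p = 1.5e-10), and TIMP3, a metalloprotease inhibitor, by -1.30 ± 0.19 (adjusted p = 2.4e-07). The membrane metalloprotease MMP24 was higher, with 189, 180.5, 239 and 219 CPM against 140.1 to 167 CPM (median 153) and a difference of 0.43 ± 0.042 (adjusted p = 1.7e-11). PLAU, the protease urokinase, differed by 0.14 ± 0.041 (adjusted p = 0.0046), and this call was lost without the DMSO library of set 3 (adjusted p = 0.070).

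Genes linked to TGF-beta and to mesenchymal character showed no common direction. Of 24 tested members 9 were lower and 8 higher, with a median of 0.00046 that became -0.05 with library size as the only scaling. Under library size scaling, or without the both-drugs library of set 3, the number of higher members was 5. TAGLN, an actin-binding protein of contractile cells, had 15.2, 12.9, 16.7 and 17 CPM against 28 to 31.8 CPM (median 30.6) and differed by -0.96 ± 0.078 (adjusted p = 9.4e-14). The receptor TGFBR1 differed by -0.64 ± 0.054 (adjusted p = 7.3e-13), and PMEPA1, a feedback target of the pathway, by -0.53 ± 0.04 (adjusted p = 1e-14). ID2, an inhibitor of basic helix-loop-helix factors that BMP signals induce, had 234, 244, 184 and 181 CPM against 104 to 167 CPM (median 124) and was higher by 0.71 ± 0.049. SNAI2, a repressor of epithelial genes, differed by 0.56 ± 0.13 (adjusted p = 0.00061). The intermediate filament gene VIM differed by 0.09 ± 0.034 (adjusted p = 0.038), and leaving out any 1 of 7 libraries, such as the 5-Ph-IAA library of set 3 (adjusted p = 0.21), ended its call.

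YAP and TEAD genes were called higher in 7 of 20 and lower in 3, with a median of 0.07. WWTR1, which encodes the coactivator TAZ, differed by 0.28 ± 0.041 (adjusted p = 4.8e-07) and its DNA-binding partner TEAD4 by 0.42 ± 0.075 (adjusted p = 1.1e-05), whereas the targets CCN1 (0.06, adjusted p = 0.26), CCN2 (-0.14, adjusted p = 0.054) and ANKRD1 (-0.37, adjusted p = 0.14) were not called. ARHGEF17, a guanine nucleotide exchange factor, was higher (0.32). NT5E, the ectoenzyme that makes adenosine, was lower, with 12.8, 15.8, 19.1 and 19.9 CPM against 17.6 to 29.5 CPM (median 26.7) and a difference of -0.55 ± 0.082 (adjusted p = 4.1e-07). In place of 3 lower members there were 6 under library size scaling, and 5 without the both-drugs library of set 3, with a stricter filter on low counts or in a fit to protein-coding genes only.

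Sterol synthesis genes were lower in set 3 by small amounts. Of 26 members, all tested, 17 were lower and 4 higher, and the median was -0.19. HMGCS1, which makes the precursor HMG-CoA (NCBI Gene 3157, GRCh38.p14 chromosome 5, 43287470 to 43313412), had 119, 120.5, 134 and 113 CPM in set 3, against 144 to 177 CPM (median 160) in the others. The ranges did not overlap, and the difference was -0.40 ± 0.042 (adjusted p = 1.1e-10). STARD4, a sterol carrier, had 7.94, 9.80, 12.1 and 13.7 CPM against 11.3 to 28.3 CPM (median 19.9) and fell the most of the list, with a difference of -0.86 ± 0.094. The pooled ranges overlapped, but the library of set 3 was the lowest in each treatment. TM7SF2, a sterol reductase, differed by -0.56 ± 0.061 (adjusted p = 3.5e-10), and INSIG1, which holds the SREBP complex in the endoplasmic reticulum, by -0.53 ± 0.058 (adjusted p = 4e-10). SQLE, squalene epoxidase, differed by -0.22 ± 0.047 (adjusted p = 0.00023), and SREBF2, which encodes SREBP2, by -0.20 ± 0.05 (adjusted p = 0.0013). INSIG1 and SREBF2 were picked out after their values were seen. EBP, a sterol isomerase, was higher, with 84.6, 95.9, 81.3 and 81.5 CPM against 64.2 to 80.5 CPM (median 69.7) and a difference of 0.26 ± 0.049 (adjusted p = 3.4e-05).

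The promoters of SREBF2, HMGCS1, STARD4 and INSIG1 are shown as those of 4 of the 17 lower members. Each is the 250 bases before the start of the gene, from RefSeq on GRCh38.p14, read 5′ to 3′ on the strand of the gene, with capitals at matches to 2 letter patterns on either strand. The patterns were the sterol regulatory element, to which SREBP2 is known to bind, and the CCAAT box, read as ATTGG on the other strand. The letters of the sterol element are the run of 10 capitals in the SREBF2 promoter. SREBF2 lies at chr22:41832855-41833104 (plus strand), HMGCS1 at chr5:43313413-43313662 (minus), STARD4 at chr5:111512536-111512785 (minus) and INSIG1 at chr7:155297628-155297877 (plus).
SREBF2: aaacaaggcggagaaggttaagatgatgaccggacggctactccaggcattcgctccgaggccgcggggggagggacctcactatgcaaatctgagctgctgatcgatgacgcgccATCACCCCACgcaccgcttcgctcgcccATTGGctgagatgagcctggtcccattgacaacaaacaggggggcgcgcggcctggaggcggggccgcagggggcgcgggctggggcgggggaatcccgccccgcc
HMGCS1: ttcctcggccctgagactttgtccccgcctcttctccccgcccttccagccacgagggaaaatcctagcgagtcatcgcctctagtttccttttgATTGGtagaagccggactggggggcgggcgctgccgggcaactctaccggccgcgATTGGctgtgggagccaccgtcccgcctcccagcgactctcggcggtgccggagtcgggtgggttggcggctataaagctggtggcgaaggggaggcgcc
STARD4: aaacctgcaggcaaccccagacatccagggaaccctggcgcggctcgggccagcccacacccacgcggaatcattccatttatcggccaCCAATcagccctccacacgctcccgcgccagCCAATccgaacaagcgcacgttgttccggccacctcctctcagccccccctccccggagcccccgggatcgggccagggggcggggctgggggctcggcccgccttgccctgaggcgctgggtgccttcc
INSIG1: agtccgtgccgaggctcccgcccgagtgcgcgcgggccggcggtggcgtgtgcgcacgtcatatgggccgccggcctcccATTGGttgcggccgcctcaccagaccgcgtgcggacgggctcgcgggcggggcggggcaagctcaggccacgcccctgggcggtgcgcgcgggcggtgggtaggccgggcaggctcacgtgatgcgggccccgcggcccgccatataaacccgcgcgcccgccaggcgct
Of the 26 list members 19 had an entry. The sterol element was found in 1 of them, SREBF2, and in 0.0606% of 11547 promoters of tested genes of the same length. A shorter spelling, TCACNCCAC with N for any base, was also found in SREBF2 alone, and in 0.857% of the 11547. A CCAAT box was found in 15 of 19 (78.9%), against 34.7% of the 11547 promoters. The 15 are not limited to lower members, as they include EBP, which was higher and has 3 boxes. A match describes the letters only, and the absence of these spellings says nothing about binding.

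Fatty acid genes were lower in 10 of 16 and higher in 0, with a median of -0.14. For this list and for the S phase, ribosomal protein, respiratory and heat shock lists below, the direction with 0 calls also had 0 members at an unadjusted p under 0.05, and 0 by DESeq2 and by limma-voom. FADS2, a desaturase, had 434, 483, 323 and 336 CPM against 416 to 597 CPM (median 514) and differed by -0.39 ± 0.04 (adjusted p = 5.7e-11). SCD, the stearoyl-CoA desaturase, had 527, 575, 450.4 and 431 CPM against 592 to 726 CPM (median 622), with no overlap and a difference of -0.38 ± 0.042 (adjusted p = 1.4e-09). ACSL3, which activates fatty acids, differed by -0.35 ± 0.039 (adjusted p = 3.9e-10). The central enzymes FASN (-0.13, adjusted p = 0.073) and ACACA (-0.04, adjusted p = 0.59) were not called. Sterol export genes controlled by LXR had 2 higher, 1 lower (3 under library size scaling) and 7 not called among 10, with a median of -0.11. Their shares of 20.0% higher and 10.0% lower did not exceed the 22.6% and 21.4% over all genes tested. APOC1, an apolipoprotein, had 60.6, 66.6, 58.9 and 57.4 CPM against 34.9 to 46.5 CPM (median 40.7) and differed by 0.58 ± 0.06 (adjusted p = 9.5e-11), and NR1H2, which encodes LXR-beta, differed by 0.20 ± 0.042 (adjusted p = 0.00019). The efflux pump ABCA1 (-0.20, adjusted p = 0.076) and the ubiquitin ligase MYLIP (-0.19, adjusted p = 0.062) were not called, and the call of ABCG1 (-0.45 ± 0.18, adjusted p = 0.036) was lost on leaving out any 1 of 5 libraries, such as the DMSO library of set 3 (adjusted p = 0.28).

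Genes of DNA replication were higher in set 3. Of 31 members of the S phase list 22 were higher, 0 were lower and the median was 0.26. MCM2, a subunit of the replicative helicase (NCBI Gene 4171, GRCh38.p14 chromosome 3, 127598411 to 127622436), had 143, 109.8, 64.8 and 58.7 CPM in set 3, against 41.3 to 95.2 CPM (median 61.6) in the others. The libraries of set 3 without 5-Ph-IAA were above all others, and those with 5-Ph-IAA were inside the pooled range but above both partners of their own treatment. The difference was 0.53 ± 0.048 (adjusted p = 3.5e-12), and those of its partners were 0.43 ± 0.049 for MCM6, 0.44 ± 0.054 for MCM5 and 0.34 ± 0.039 for MCM7. PCNA, the sliding clamp, differed by 0.12 ± 0.035 (adjusted p = 0.0058). CCNE2, a cyclin of S phase entry, was not called (-0.07, adjusted p = 0.71). All cells were released from a thymidine block for the same 4 h per the labels, and the position of each library in the cell cycle was not measured.

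Mitotic genes were called in both directions. Among 30 mitotic members there were 12 higher and 7 lower. Lower members made up 23.3%, near the 21.4% over all genes tested, and higher members 40.0%, against 22.6%. The list median of 0.03 turned to -0.02 under library size scaling. HJURP, the chaperone that places CENP-A at centromeres, had 318, 326, 169 and 187 CPM against 127 to 252 CPM (median 185) and differed by 0.41 ± 0.038 (adjusted p = 2.8e-12). BIRC5, survivin, differed by 0.37 ± 0.039 (adjusted p = 1.1e-10) and AURKB, its kinase partner, by 0.26 ± 0.046 (adjusted p = 1.1e-05). CENPE, the kinetochore kinesin, was lower in every treatment, with 51.7, 114, 34.7 and 56.2 CPM against 55.2 to 239 CPM (median 97.3) and a difference of -0.89 ± 0.057 (adjusted p = 8e-15). Its pooled ranges overlapped. CCNB1, the cyclin of mitotic entry, differed by 0.16 ± 0.037 (adjusted p = 0.00043), and PLK1, a mitotic kinase, by 0.17 ± 0.037 (adjusted p = 0.00023), while KIF20A, a cytokinesis kinesin, was not called (0.06 ± 0.038, adjusted p = 0.22). Either pair of treatments alone, with or without 5-Ph-IAA, gave 7 higher members. Histone genes of the replication-dependent class, whose mRNAs mostly lack a poly(A) tail and are poorly captured by poly(A) selection, had 5 of 14 tested members lower and 1 higher, with a median of -0.16. H2AC11 differed by -0.90 ± 0.28 (adjusted p = 0.007), and H2BC12 (0.03), H1-2 (0.04) and H3C10 (-0.37) were not called. The higher member H3C12 (0.90 ± 0.37, adjusted p = 0.043) lost its call on leaving out any 1 of 8 libraries, such as the 5-Ph-IAA library of set 3 (adjusted p = 0.15), and H2BC5 (-0.37 ± 0.12, adjusted p = 0.0096) without the prexasertib library of set 3 (adjusted p = 0.070), where 3 members were lower.

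Ribosomal protein genes and nuclear genes of respiration were higher in 94.4% and 88.5% of their tested members. Of 36 cytosolic ribosomal protein genes 34 were higher, 0 were lower and the median was 0.27. RPS14, a protein of the small subunit, had 1366, 1426, 1319 and 1407 CPM in set 3 and 835 to 1127 CPM (median 1050) in the others. Set 3 lay above all 8, and the difference was 0.45 ± 0.038 (adjusted p = 3.9e-13). RPL27 differed by 0.44 ± 0.038 (adjusted p = 5.1e-13), and RPL3, RPLP0 and RPS3 by 0.21, 0.33 and 0.33. The nuclear genes of oxidative phosphorylation were higher in 23 of 26 and lower in 0, with a median of 0.28. ATP5MC1, a ring subunit of ATP synthase, had 200, 207, 189.5 and 197 CPM against 119 to 149 CPM (median 137) and differed by 0.56 ± 0.039 (adjusted p = 8.7e-16). CYC1, cytochrome c1, had 281, 276, 242 and 257 CPM against 150.3 to 213 CPM (median 182) and differed by 0.53 ± 0.04 (adjusted p = 1.3e-14). ATP5F1B, the catalytic subunit, differed by 0.39 ± 0.035 (adjusted p = 2.1e-12), and NDUFS1 of complex I by 0.24 ± 0.04 (adjusted p = 5.2e-06), while SDHA of complex II was not called (0.08 ± 0.037, adjusted p = 0.076). Median gene spans were 5.44 kb for the ribosomal and 11.6 kb for the respiratory list. Genes of the bins with median spans of 4.50 and 13.8 kb had median differences of 0.09 and 0.03. Other lists with short median spans had positive or negative medians. Spans were 8.42 kb for NF-kB genes and chemokines (median difference 0.14), 8.1 kb for interferon-stimulated genes (0.01) and 7.59 kb for metal and iron genes (0.05). They were 4.50 kb for immediate-early genes (-0.25) and 0.52 kb for replication-dependent histones (-0.16), whose mRNAs are poorly captured, as given above. Heat shock genes had 13.7 kb (-0.25) and the plasma protein list 13.9 kb (-1.24). The part of gene span in the gains and losses of any list was not tested.

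Ribosome biogenesis genes were higher in 18 of 30 and lower in 1, with a median of 0.16. FBL, fibrillarin, had 462, 428, 404 and 433 CPM against 299 to 399.6 CPM (median 347), with set 3 above all others and a difference of 0.32 ± 0.038 (adjusted p = 4.2e-09). BOP1 and GRWD1, which act in assembly of the large subunit and in nucleolar chaperoning, differed by 0.34 ± 0.042 and 0.35 ± 0.046. NOP58, which shares a complex with fibrillarin, was the member that was lower (-0.19 ± 0.046, adjusted p = 0.00069), while NCL (0.08) and NOP56 (0.04) were not called. The sign of NOP56 turned with library size as the only scaling (-0.0094). Under that scaling, or without the DMSO library of set 3, the list had 2 lower members.

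**Figure D3:**
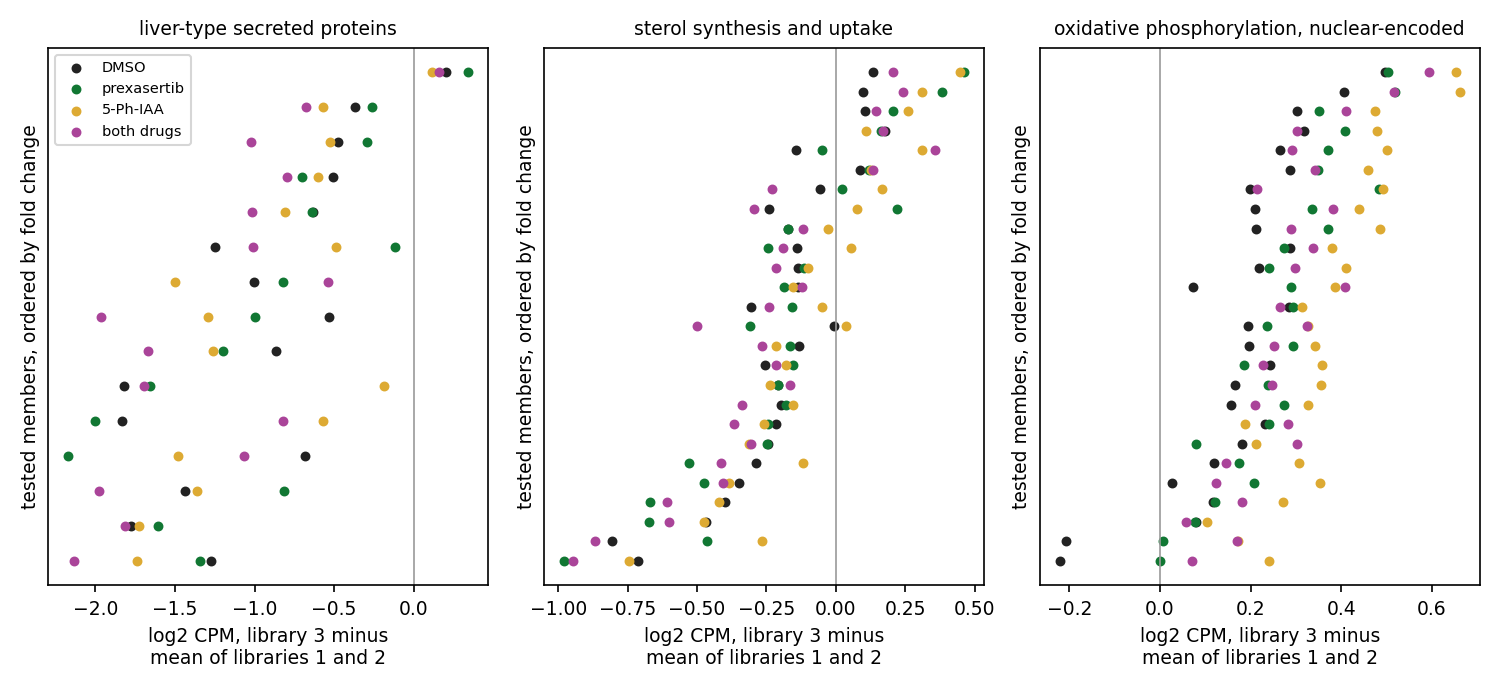
Log2 CPM of the set 3 library minus the mean of the other 2 libraries (horizontal axis) for each tested member (vertical axis, ordered by fold change) of 3 gene lists, 1 colour per treatment. Nearly all points of the plasma protein list are below 0, most of the sterol list are below 0, and most of the respiratory list are above 0, as the list medians of -1.24, -0.19 and 0.28 give.

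Growth factor and receptor genes were lower in 13 of 22 and higher in 3, with a median of -0.23. BMP4, a secreted ligand of the BMP family, had 7.32, 5.49, 7.89 and 6.45 CPM against 10.1 to 18.8 CPM (median 12.9) and differed by -0.99 ± 0.12 (adjusted p = 2.6e-09). The receptor IGF1R had 276, 218, 352 and 341 CPM against 271 to 506 CPM (median 368) and differed by -0.35 ± 0.042 (adjusted p = 5.3e-09). IGFBP3, which binds IGF ligands, was lower (-0.31 ± 0.038, adjusted p = 7.2e-09), and IGFBP6 was higher (0.42 ± 0.048, adjusted p = 9.5e-10). VEGFA, the angiogenic ligand, differed by -0.34 ± 0.06 (adjusted p = 1.2e-05). The count of higher members was 5 without the DMSO library of set 2 or that of set 3. ERK feedback genes and EGFR ligands were higher in 8 of 23 and lower in 4, with a median of 0.01 that became -0.03 with library size as the only scaling. ETV5, an ERK-induced transcription factor, differed by 0.30 ± 0.055 (adjusted p = 1.4e-05), PHLDA1 by 0.26 ± 0.047 (adjusted p = 1.6e-05) and the AP-1 member FOSL1 by 0.39 ± 0.064 (adjusted p = 2.9e-05). EREG, an EGFR ligand, differed by 0.28 ± 0.063 (adjusted p = 0.00032), and AREG (0.0065) and the phosphatase DUSP6 (-0.12, adjusted p = 0.3) were not called. EPHA2, an ephrin receptor, was lower (-0.34 ± 0.039, adjusted p = 1.1e-09). The count of 8 dropped to 4 under library size scaling, with DESeq2 or without the DMSO library of set 3, and to 5 without the libraries of sets 1 or 2 given DMSO or 5-Ph-IAA, the prexasertib library of set 1, the 5-Ph-IAA library of set 3 or the both-drugs library of set 2.

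Wnt and Notch genes were lower in 6 of 21 (28.6%), near the 21.4% of all genes tested, and higher in 1, with a median of -0.09. JAG1, a Notch ligand, had 108, 88.2, 75.7 and 79.8 CPM against 117 to 168 CPM (median 131) and was lower without overlap (-0.64 ± 0.045, adjusted p = 7.7e-16). NOTCH1 differed by -0.53 ± 0.06 (adjusted p = 2.5e-08), RNF43, a ubiquitin ligase that removes Wnt receptors, by -0.51 ± 0.063 (adjusted p = 7.2e-09) and AXIN2, a Wnt target, by -0.32 ± 0.078 (adjusted p = 0.001). HES1 (-0.18) and DKK1 (0.00092) were not called. SP5, a Wnt target at 0.856, 0.916, 0.910 and 2.30 CPM in set 3, was called higher (1.00 ± 0.35, adjusted p = 0.018) but not without the DMSO, 5-Ph-IAA or both-drugs library of set 3 (adjusted p up to 0.20).

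Chaperones of the heat shock response were lower in 11 of 13 and higher in 0, with a median of -0.25. The 6 libraries with 5-Ph-IAA alone gave 7 lower members. HSPA8, the constitutive HSP70, differed by -0.34 ± 0.036 (adjusted p = 1.5e-10) and its co-chaperone DNAJB1 by -0.30 ± 0.038 (adjusted p = 1.7e-08). The inducible HSP70 genes HSPA1A and HSPA1B, paralogs whose reads may be split between them, differed by -0.95 ± 0.096 (adjusted p = 4.2e-05) and -0.83 ± 0.08 (adjusted p = 8e-06). Genes of the unfolded protein response were lower in 7 of 18 and higher in 1, with a median of -0.09. SYVN1, a ubiquitin ligase of the endoplasmic reticulum, differed by -0.37 ± 0.057 (adjusted p = 7.7e-07), HYOU1 by -0.25 ± 0.043 (adjusted p = 5.6e-06) and HSP90B1 by -0.20 ± 0.037 (adjusted p = 1.9e-05), while SDF2L1 was higher (0.33 ± 0.08, adjusted p = 0.00086) and DNAJB9 was not called (-0.10). HSPA5 differed by -0.15 ± 0.04 (adjusted p = 0.0019), a call lost without the DMSO library of set 3 (adjusted p = 0.054), where 2 members of this list were higher.

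The amino acid response had 10 of 23 members higher and 5 lower, with a median of 0.07. The share of lower members, 21.7%, was near the 21.4% over all genes tested, and that of higher members was 43.5% against 22.6%. ATF5 differed by 0.40 ± 0.043 (adjusted p = 2.6e-10), the amino acid transporter SLC7A5 by 0.25 ± 0.035 (adjusted p = 1.2e-07), PSAT1 of serine synthesis by 0.27 ± 0.04 (adjusted p = 2.9e-07) and the asparagine synthetase ASNS by 0.26 ± 0.049 (adjusted p = 3.7e-05). DDIT3, a stress factor of the same pathway, went the other way (-0.81 ± 0.11, adjusted p = 1.5e-07), and CHAC1 (-0.22) and TRIB3 (-0.01) were not called. Genes of hypoxia and glycolysis split into 8 higher and 10 lower of 25, with a median of -0.11. CA9, a carbonic anhydrase induced by HIF, had 1.71, 1.74, 1.75 and 2.15 CPM against 5.28 to 8.89 CPM (median 7.05) and differed by -1.94 ± 0.18 (adjusted p = 3.4e-12). The glucose transporters SLC2A1 and SLC2A3 were lower (-0.37 ± 0.043 and -0.76 ± 0.069). Among the glycolytic enzymes, ENO1 had 3178, 3271, 2713 and 2716 CPM against 1888 to 2584 CPM (median 2301) and was higher by 0.38 ± 0.034. NDRG1, another HIF target, differed by 0.11 ± 0.043 (adjusted p = 0.033), a call lost on leaving out any 1 of 7 libraries, such as the both-drugs library of set 3 (adjusted p = 0.18).

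NRF2 targets divided into 13 higher and 12 lower of 26, with a median of 0.06, and the 6 libraries without 5-Ph-IAA alone gave 6 lower members. OSGIN1, an oxidative stress gene, had 130.1, 91.4, 165 and 105 CPM against 59.2 to 84.8 CPM (median 69.9) and differed by 0.77 ± 0.049 (adjusted p = 8.5e-17). TXNRD1, thioredoxin reductase, had 3149, 2583, 2994 and 2573 CPM against 1813 to 2286 CPM (median 2051) and was higher without overlap (0.44 ± 0.035, adjusted p = 4.9e-14), as was SRXN1, sulfiredoxin (0.45 ± 0.037, adjusted p = 1.8e-13). GPX2, a glutathione peroxidase of gut epithelium, had 85.9, 73.2, 74 and 70.8 CPM against 153 to 182 CPM (median 167), less than any other library in all 4 treatments, and differed by -1.13 ± 0.048 (adjusted p = 8e-23). NQO1 differed by 0.14 ± 0.033 (adjusted p = 0.00073) and AKR1C1, which has near-identical family members, by -0.47 ± 0.07 (adjusted p = 0.00016). GCLM differed by 0.13 ± 0.041 (adjusted p = 0.012), a call lost without the DMSO or the 5-Ph-IAA library of set 3 (adjusted p up to 0.088).

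p53 targets were lower in 12 of 24 and higher in 3, with a median of -0.09. TP53INP1 had 51.4, 52.3, 41.2 and 60.5 CPM against 68.8 to 95.6 CPM (median 73.5) and differed by -0.60 ± 0.056 (adjusted p = 7.5e-12). MDM2, the ligase that degrades p53, differed by -0.53 ± 0.065 (adjusted p = 9.9e-06), RRM2B by -0.32 ± 0.042 (adjusted p = 3.9e-08), FBXW7 by -0.49 ± 0.077 (adjusted p = 1.2e-06), BTG2 by -0.22 ± 0.043 (adjusted p = 4.5e-05) and the CDK inhibitor CDKN1A by -0.16 ± 0.034 (adjusted p = 0.00019). DDB2, a DNA repair gene, was higher (0.26 ± 0.038, adjusted p = 2.6e-07), and the count of 3 higher members dropped to 1 under library size scaling or without the prexasertib library of set 3. Immediate-early genes were lower in 12 of 21 and higher in 2, with a median of -0.25. JUNB had 93.6, 127, 70.3 and 86.5 CPM against 118 to 208 CPM (median 155) and differed by -0.76 ± 0.044 (adjusted p = 2.1e-18), FOSB by -1.80 ± 0.19 (adjusted p = 7e-08), EGR1 by -0.84 ± 0.13 (adjusted p = 6.4e-06) and FOS by -0.74 ± 0.16 (adjusted p = 0.0006), while KLF10 was higher (0.24 ± 0.045, adjusted p = 1.9e-05). IER2 differed by -0.18 ± 0.064 (adjusted p = 0.019), a call lost without the prexasertib library of set 3 or the both-drugs library of set 1 or 3 (adjusted p up to 0.13).

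Among inflammatory lists, NF-kB genes and chemokines were higher in 9 of 17 and lower in 1, with a median of 0.14. BIRC3, an inhibitor of apoptosis, had 137, 112, 137 and 122 CPM against 75.3 to 95.6 CPM (median 80.1) and differed by 0.63 ± 0.062 (adjusted p = 3.4e-08). RELB differed by 0.53 ± 0.073 (adjusted p = 1.7e-07), TNIP1 by 0.32 ± 0.038 (adjusted p = 4.5e-09) and the inhibitor NFKBIA by 0.37 ± 0.061 (adjusted p = 3.3e-06), whereas the chemokine CXCL8 was lower (-0.60 ± 0.12, adjusted p = 9.1e-05). TNFAIP3 differed by 0.27 ± 0.11 (adjusted p = 0.037), a call lost on leaving out any 1 of 5 libraries, such as the 5-Ph-IAA library of set 3 (adjusted p = 0.27). Under library size scaling, or without the DMSO or both-drugs library of set 1 or set 3, 2 members were lower. Interferon-stimulated genes showed 8 higher and 7 lower of 30, shares near the 22.6% and 21.4% over all genes tested, and the median of 0.01 became -0.04 with library size as the only scaling. OAS3 (0.33) and PSMB9 (0.50) were higher and HLA-B (-0.34) was lower, while ISG15 (0.15) and IFIT1 (0.28) were not called. The count of 8 was 4 under library size scaling, 5 with DESeq2, 3 without the 5-Ph-IAA library of set 3 and 5 without the other libraries of set 3 or the 5-Ph-IAA library of set 1.

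Lysosome genes were higher in 10 of 24 and lower in 1, with a median of 0.06. NPC1, which exports sterol from lysosomes, had 184, 228, 175 and 182 CPM against 122 to 146 CPM (median 135) and was higher without overlap (0.50 ± 0.045, adjusted p = 3.9e-12). The autophagy receptor SQSTM1 differed by 0.34 ± 0.035 (adjusted p = 8.6e-11) and NPC2 by 0.25 ± 0.043 (adjusted p = 1e-05), and the protease CTSD was not called (0.06). LAMP1 (0.12 ± 0.042, adjusted p = 0.02) lost its call on leaving out any 1 of 4 libraries, such as the prexasertib library of set 3 (adjusted p = 0.25), and MAP1LC3B, the lower member (-0.11 ± 0.045, adjusted p = 0.0498), on leaving out any 1 of 8, such as the same library (adjusted p = 0.16). AHR targets were higher in 5 of 8 and lower in 1, with a median of 0.19. This list includes the receptor gene AHR itself and NFE2L2. NQO1, a higher member, and ALDH3A1, the lower member, are also counted in the NRF2 list, so the 2 lists are not separate. CYP1B1 had 92.2, 124, 89 and 109 CPM against 66.3 to 83 CPM (median 72.4) and differed by 0.49 ± 0.05 (adjusted p = 7.7e-11), the repressor AHRR by 0.91 ± 0.12 (adjusted p = 9.2e-08) and NFE2L2 by 0.20 ± 0.042 (adjusted p = 9.4e-05), and TIPARP was not called (0.17). The lower member ALDH3A1 (-0.09 ± 0.034, adjusted p = 0.028) lost its call on leaving out any 1 of 4 libraries, such as the both-drugs library of set 3 (adjusted p = 0.095).

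Metal and iron genes had 3 higher and 4 lower of 11, and the median of 0.05 became -0.00046 with library size as the only scaling. SLC40A1, the iron exporter ferroportin, had 14.5, 13.8, 18.7 and 18.6 CPM against 20.8 to 30.5 CPM (median 26) and differed by -0.63 ± 0.077 (adjusted p = 5.6e-09). The zinc exporter SLC30A1 was lower (-0.32 ± 0.066, adjusted p = 0.00028), HMOX1, which releases iron from heme, was higher (0.32 ± 0.038, adjusted p = 2.1e-09) and so was the ferritin gene FTH1 (0.18 ± 0.037, adjusted p = 0.0001), while MT2A (0.14) and TFRC (0.07) were not called. MT1X (-0.20 ± 0.083, adjusted p = 0.043) lost its call on leaving out any 1 of 7 libraries, such as the both-drugs library of set 3 (adjusted p = 0.21), and only 2 members were lower without the DMSO library of set 1 or 3, the 5-Ph-IAA library of set 1 or the both-drugs library of set 2. Glucocorticoid-responsive genes were lower in 3 of 12, near the share of 21.4% over all genes tested, and higher in 1 (0 under library size scaling), with a median of -0.04. SGK1 differed by -0.57 ± 0.096 (adjusted p = 4.7e-06) and KLF9 by -0.62 ± 0.12 (adjusted p = 4.4e-05), and FKBP5 (-0.02) and PER1 (-0.09) were not called. TSC22D3 (-0.25 ± 0.078, adjusted p = 0.0075) lost its call without the prexasertib library of set 3 (adjusted p = 0.059), and ERRFI1, the higher member (0.15 ± 0.054, adjusted p = 0.022), without the DMSO library of set 1 or 3 or the 5-Ph-IAA library of set 3 (adjusted p up to 0.29).

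**Figure D4:**
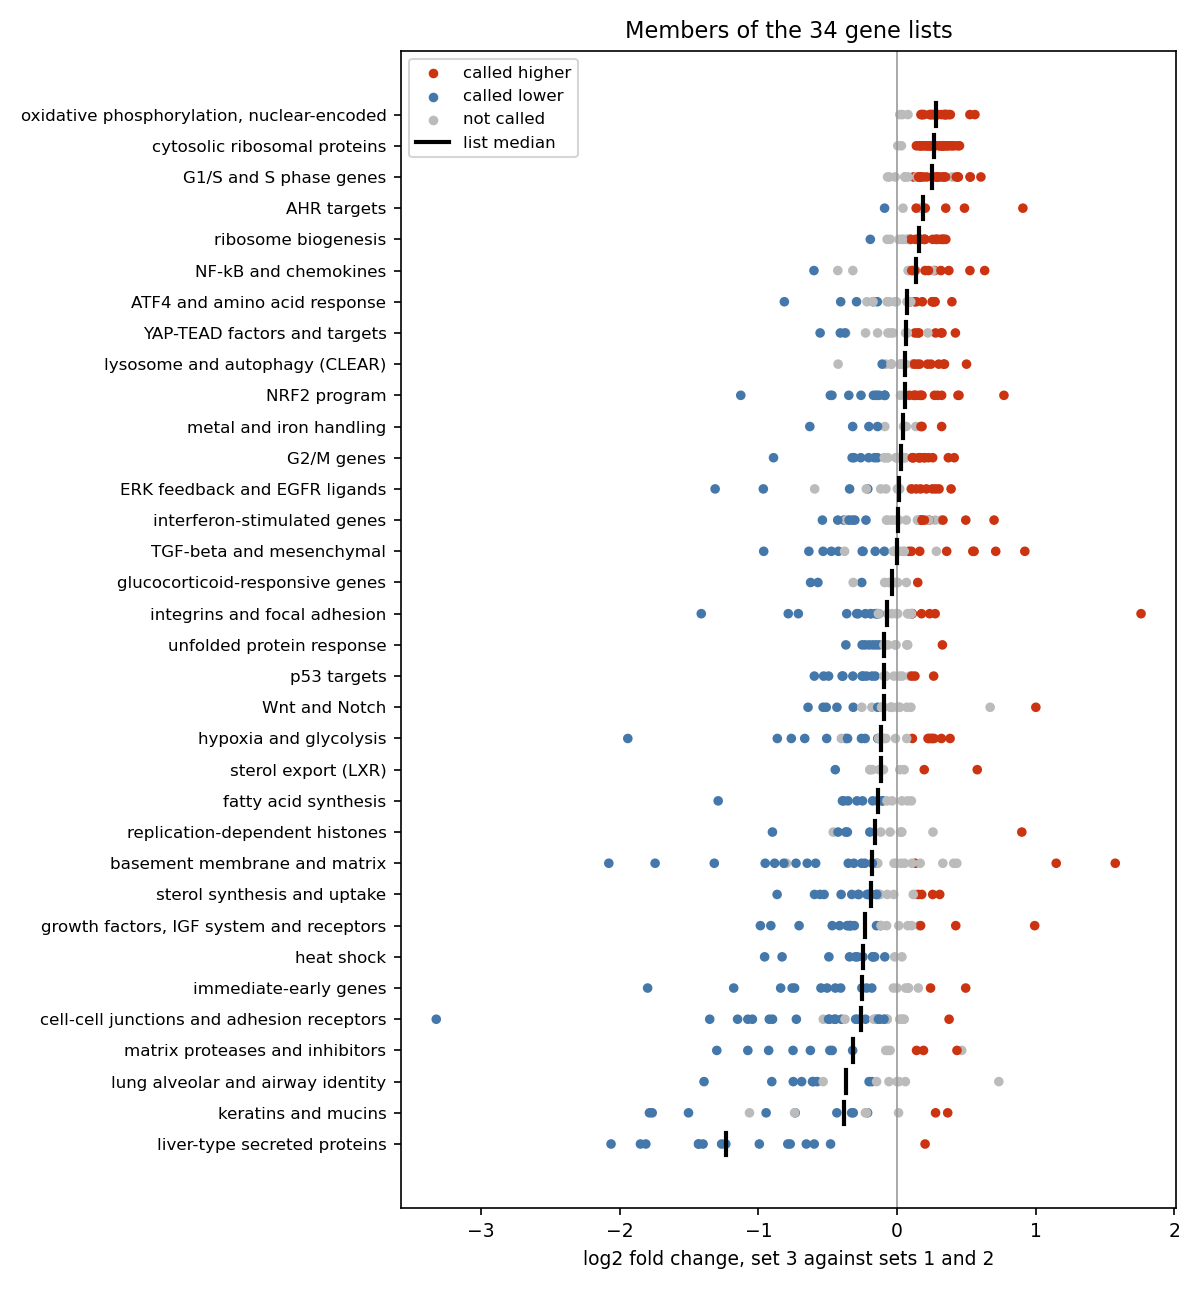
Log2 fold change of set 3 against sets 1 and 2 (horizontal axis) for every tested member of the 34 gene lists (vertical axis, ordered by list median), coloured by call, with a black bar at each list median. Medians run from -1.24 for the plasma protein list to 0.28 for the respiratory list.

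The set difference was found to depend on a drug in few genes. A test of the interaction with 5-Ph-IAA called 15 of 14658 genes (0.102%), 12 of them positive (0.0819%) and 3 negative (0.0205%), with 1073 (7.32%) at an unadjusted p under 0.05. The test with prexasertib called 5 (0.0341%), with 780 (5.32%) at an unadjusted p under 0.05. In the first group were 4 heat shock genes, HSPH1, HSPA1A, HSPA1B and HSP90AA1, whose deficit in set 3 was smaller when 5-Ph-IAA was present. HSPA1B had 147.8 CPM in the DMSO library of set 3 against 333 and 329 CPM in the others, and 108.9 CPM with 5-Ph-IAA against 177 and 169 CPM. The set 3 difference of HSPA1B on the log2 scale was -1.16 under DMSO, -0.92 under prexasertib, -0.67 under 5-Ph-IAA alone and -0.56 under the drug pair. With 5-Ph-IAA the HSPA1B difference was larger (less negative) by 0.43 ± 0.077 (adjusted p = 0.0058), and that of HSPH1, a cofactor of HSP70, by 0.46 ± 0.072 (adjusted p = 0.0006). DHRS2, a mitochondrial reductase, changed by 0.54 ± 0.075 (adjusted p = 7e-05), and GOLGA4, a golgin of the trans-Golgi, by 0.50 ± 0.089 (adjusted p = 0.0058). RPL21 (0.64 ± 0.12, adjusted p = 0.013) was above both other sets in the libraries with 5-Ph-IAA and between them in those without, and its many processed copies make its count uncertain. The calls of HSPH1, DHRS2 and GOLGA4 were lost without the prexasertib or the both-drugs library of set 3, and those of HSPA1B and RPL21 without any 1 of the libraries of set 3 (adjusted p up to 0.19, 0.14, 0.45, 0.25 and 0.47 in the order HSPH1, DHRS2, GOLGA4, HSPA1B, RPL21). Without either of those 2 libraries the test called 0 genes higher.

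With prexasertib, the 5 genes called all had a set 3 difference that was higher with the drug. IGFN1, which encodes a muscle protein with immunoglobulin-like domains, had 36.7 CPM in the prexasertib library of set 3 against 7.98 and 8.09 CPM in the others, and 17 CPM in the DMSO library against 8.22 and 12.0 CPM. Its set 3 difference was larger with prexasertib by 1.46 ± 0.20 (adjusted p = 8.7e-05), and this call held when any library was left out. PIF1, a DNA helicase, had 104 CPM in the prexasertib library of set 3 against 71.5 and 84.4 CPM, but 29 CPM in the DMSO library against 39.6 and 46.6 CPM, 4.93 CPM in the 5-Ph-IAA library against 9.81 and 8.89 CPM and 29.8 CPM in the both-drugs library against 31.2 and 30.4 CPM. Its set 3 library was above both others with prexasertib alone and below both in the other 3 treatments, and the interaction was 0.95 ± 0.14 (adjusted p = 0.00028). MROH6 changed by 1.01 ± 0.17 (adjusted p = 0.0018), the lysosomal enzyme gene IDUA by 0.97 ± 0.18 (adjusted p = 0.014) and STAG3L5P-PVRIG2P-PILRB, a readthrough transcript that shares exons with its neighbours, by 1.23 ± 0.18 (adjusted p = 0.00044). The calls of PIF1, MROH6, IDUA and the readthrough transcript were lost without the DMSO or the prexasertib library of set 3 (adjusted p up to 0.31, 0.51, 0.76 and 0.25 in that order).

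**Figure D5:**
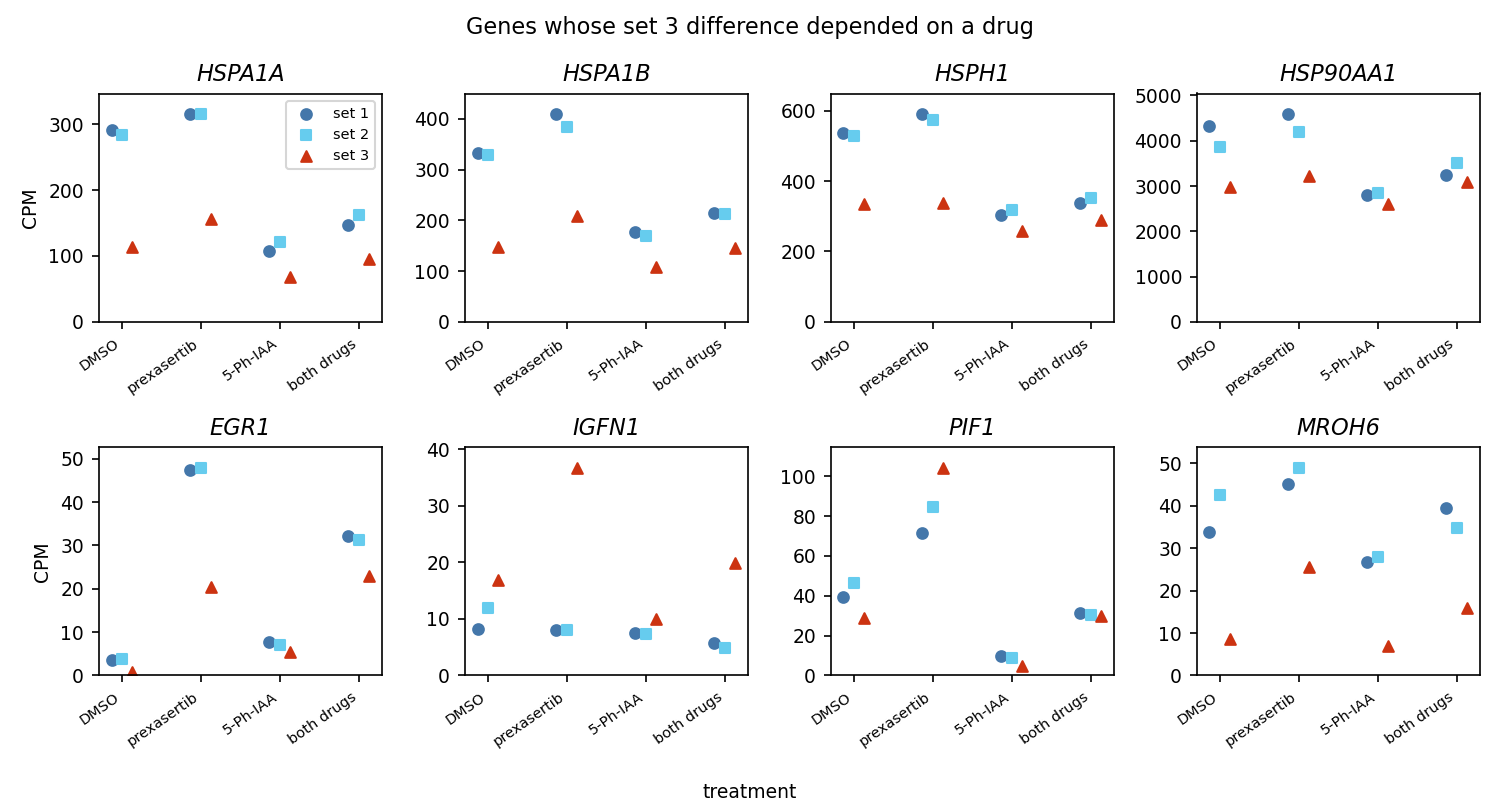
CPM (vertical axis, linear, from 0) of 8 genes with a called interaction in each library by treatment (horizontal axis), with symbols for the 3 sets. The gap between set 3 and the other sets is narrower with 5-Ph-IAA for the 4 heat shock genes and EGR1, and it differs with prexasertib for IGFN1, PIF1 and MROH6.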

How the data were processed

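Poly(A)-selected, directional RNA libraries were counted per gene by the authors, and the deposited table holds raw counts by NCBI Gene ID. featureCounts 2.0.8, limma 3.58.1 and hg38 are named in the submitters' processing notes. For these counts, aligner, gene annotation and strandedness setting are not given in the sources at hand. Of 28395 genes, 27745 matched RefSeq names, and the 650 others held 0.0324% of counts.

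Groups and numbers follow the sample titles. Genes were filtered with filterByExpr (minimum count 10, minimum total count 15), scaled with TMM factors (0.925 to 1.1) and tested with edgeR 4.0.16 in R 4.3.3 by quasi-likelihood, with treatment as a covariate and Benjamini-Hochberg adjustment over all 14658 genes. A gene is called at an adjusted p under 0.05. Errors after ± are standard errors of log2 fold changes. Each was derived from the test, as the size of the change divided by the square root of its F statistic. The interactions added a set 3 term for the presence of each drug. DESeq2 1.42.0 and limma-voom were alternatives, and a fit restricted to protein-coding genes was chosen after seeing the data. The test was tested on simulated data.

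The numbers come from the titles, which do not say what they mark. The biological coefficient of variation was 5.74%, and depth varied 10830048 to 17789482 counts.

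The members and gene lists were chosen with earlier results of these data known. Named genes are the 15 with the largest change in each direction (mean log2 CPM of at least 1, the same direction in all 4 treatments), for each list the 3 smallest adjusted p in its main direction, 1 in the other and its first 3 genes, and 5 for each interaction. Some genes that this rule names are not reported here. Others are marked as picked after their values were seen. CUT&RUN files were left out because the comparison concerns RNA only.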

Additional observations from a re-analysis of the deposited data

Results flagged for a closer look

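The size of the set 3 difference depended on a drug in 15 genes for 5-Ph-IAA and in 5 genes for prexasertib, by a test of the interaction itself (edgeR, adjusted p under 0.05 over all genes). With 5-Ph-IAA the log2 difference was higher by 0.54 for DHRS2, 0.46 for HSPH1, 0.43 for HSPA1B, 0.50 for GOLGA4 and 0.64 for RPL21. With prexasertib it was higher by 1.46 for IGFN1, 0.95 for PIF1, 1.23 for STAG3L5P-PVRIG2P-PILRB, 1.01 for MROH6 and 0.97 for IDUA. Of these 10 genes, IGFN1 alone kept its call when each library was left out in turn. The cause was not tested.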

How the results depend on the processing

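Calls of set 3 against sets 1 and 2 changed direction in 0 genes under any alternative run. The replicate block gave 3320 higher and 3109 lower genes and shared 99.0% of the 6446 calls. Differences of set 3 from the mean of the other sets correlated between treatments, across genes, at 0.531 to 0.633, but those of set 2 from set 1 at -0.039 to 0.0983 (median 0.0178), and 8 of 12 libraries were most like one of their own number, so a pairing within sets 1 and 2 is not shown. DESeq2 called 5859 genes, limma-voom 6364, no filter on low counts 6342 and a strict filter 5981. The 6 libraries without 5-Ph-IAA, at a smaller number of samples, gave 1692 higher and 1878 lower. Leave-one-out counts ran from 2680 to 3229 for higher and from 2570 to 3160 for lower genes. Among 68 list counts (34 lists, each direction), 24 moved by over 1.5 times in the libraries without 5-Ph-IAA, 15 in those with it, 12 against set 2 only, 10 with library size only, 8 against set 1 only, 7 with the strict filter, 6 with DESeq2 and 3 with limma-voom.

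Between sets 2 and 1, DESeq2 called 0 higher and 4 lower genes, and leave-one-out counts ran from 1 to 103 for higher and from 2 to 128 for lower genes. The highest counts came without the both-drugs library of set 1 (103 and 120) or of set 2 (89 and 128). For the 5-Ph-IAA interaction the block gave 15 positive and 4 negative genes, and leave-one-out gave 0 to 15 and 0 to 7. It gave 0 positive genes without the prexasertib or the both-drugs library of set 3. For prexasertib the block gave 8 and 2, and leave-one-out gave 5 to 16 and 0 to 4. The cause was not tested.

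The sign turned in genes that were not called. With library size only the values were -0.0094 for NOP56, -0.046 for DKK1, -0.011 for H1-2, -0.041 for AREG, -0.035 for KRT7 and -0.018 for H2BC12. With the strict filter they were -0.0085 for DKK1 and -0.0029 for AREG, and with protein-coding genes only -0.0019 for DKK1. Against set 1 only they were -0.0040 for H1-2, -0.071 for AREG, -0.012 for KRT7, 0.012 for TRIB3 and -0.033 for H2BC12, and against set 2 only -0.023 for DKK1. Without 5-Ph-IAA they were -0.035 for NOP56, 0.0024 for FKBP5, -0.12 for DKK1, -0.064 for H1-2, -0.21 for AREG, -0.047 for KRT7 and -0.079 for H2BC12. With 5-Ph-IAA they were -0.041 for CTSD, 0.051 for PER1 and 0.0026 for CHAC1. Leaving out 1 library gave -0.087 to 0.010 for ACACA, -0.084 to 0.067 for AREG, -0.14 to 0.0042 for CCNE2, -0.41 to 0.0095 for CHAC1, -8.8e-05 to 0.10 for CTSD, -0.088 to 0.032 for DKK1, -0.0058 to 0.085 for H1-2, -0.030 to 0.067 for H2BC12, -0.022 to 0.046 for KRT7, -0.00041 to 0.067 for NOP56 and -0.071 to 0.036 for TRIB3.

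Set 3 is 1 set of 4 libraries, and what its number stands for is not stated. Genes at about 1 CPM, such as SP5 and AGT, rest on few counts.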

Other observations

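Gut and stomach epithelial genes, a list drawn up after values of set 3 were seen, were lower in 17 of 20 tested members and higher in 0 (0 at an unadjusted p under 0.05 in edgeR, and 0 in DESeq2 and limma-voom), with a median log2 difference of -1.43. The lowest value of this list, -3.32, is that of CEACAM6, reported above among the greatest losses, so its counts are not separate from those losses. A further 15 listed genes were too low to be tested. Several members build the brush border of absorptive cells. USH1C, a scaffold of its microvilli, had 3.42, 3.75, 4.63 and 4.38 CPM in set 3, in the order DMSO, prexasertib, 5-Ph-IAA and both drugs, against 9.65 to 16.3 CPM (median 11.7) in sets 1 and 2. USH1C differed by -1.60 ± 0.13 (adjusted p = 5.1e-14) by edgeR. AGR2, a disulfide isomerase that assists mucin secretion, had 31.9, 34.9, 36 and 36.5 CPM against 59.5 to 71.3 CPM (median 62.4), with a difference of -0.86 ± 0.057 (adjusted p = 1.3e-16). VIL1, the actin bundler villin, differed by -1.56 ± 0.45 (adjusted p = 0.0044), a call lost without the both-drugs library of set 3 (adjusted p = 0.053). CEACAM5, a paralog of CEACAM6, differed by -1.35 ± 0.40 (adjusted p = 0.0056), a call lost without the 5-Ph-IAA library of set 3 (adjusted p = 0.084).

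The cold-inducible RNA-binding protein genes RBM3 and CIRBP were both higher in set 3. RBM3 had 290, 276, 205 and 209 CPM against 119 to 196 CPM (median 164), with set 3 differing by 0.61 ± 0.041 (adjusted p = 4.4e-16). CIRBP had 97.8, 104, 98 and 96 CPM against 71.9 to 87.7 CPM (median 81.6) and differed by 0.32 ± 0.048 (adjusted p = 6.4e-07). Both genes were chosen after their values were seen.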
